A study of Mus musculus with 6 samples.

Results

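The genes described here are the 10 genes of the LIN28 axis of RNA-binding and oncofetal regulators: Lin28a, Lin28b, Dis3l2, Trim71, Hmga1, Hmga2, Igf2bp1, Igf2bp2, Igf2bp3 and Mycn. They were taken by gene symbol from the deposited expression table, which holds 17912 genes, and all 10 were found there. Each also passed the minimum mean level of 10 scaled counts that a test required. Poly(A) RNA had been sequenced from mouse embryonic stem cells (ESCs), pluripotent cells derived from the early embryo. The labels give 3 libraries as wild type (controls 1, 2 and 3) and 3 as clones of ESCs with knockdown of EXOSC2 by a short hairpin RNA (clones 5, 6 and 7). EXOSC2 belongs to the RNA exosome, a multi-protein machine that digests and trims RNA starting at the 3′ end. A control hairpin, a common parental line and separate cultures are not mentioned in the labels. The p-values therefore measure the spread between these libraries, which may be technical, and hairpin and clone effects cannot be told apart.

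LIN28A and LIN28B are RNA-binding proteins of early embryonic and germ cells that block the making of let-7 microRNAs. They hold the let-7 precursor by its loop, where their zinc knuckles contact a GGAG motif, and they recruit the uridylyltransferases TUT4 and TUT7, whose U-tailed product is degraded by the exonuclease DIS3L2. Mature let-7 in turn represses messages that carry its seed match, among them those of LIN28 itself, HMGA2, the IGF2BP proteins and TRIM71, so the axis works as a switch between an early and a later developmental state.

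The sequences that tie these genes together are shown first. All 9 mature let-7 family names in the RefSeq microRNA table (GRCm38.p6), miR-98 included, shared a single seed, bases 2 to 8. It stands in capitals in 3 of them, which differ only outside the seed.
mmu-let-7a-5p: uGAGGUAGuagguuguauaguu
mmu-let-7g-5p: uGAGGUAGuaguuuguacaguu
mmu-miR-98-5p: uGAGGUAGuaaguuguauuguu
The letters GGAG were searched over the whole hairpin, not in the loop alone. They were found in 9 of 12 hairpins of the family (75%) and in 447 of all 1005 mouse hairpins of the same table (44.5%). The family's hairpins were longer, with a median of 93.5 bases against 79. Mirlet7b, Mirlet7c-2 and Mir98 had no GGAG. Stretches of 30 bases around the motif, in capitals, are given for 2 hairpins, Mirlet7a-1 (chr13:48538204-48538233, minus strand) and Mirlet7g (chr9:106178879-106178908, plus strand).
Mirlet7a-1: gucacacccaccacugGGAGauaacuauac
Mirlet7g: gauaccacccgguacaGGAGauaacuguac
The libraries hold poly(A) RNA, so mature microRNAs were not measured.

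The DNA letters of a site that pairs with the seed are CTACCTC. They were searched on the sense strand of the longest annotated 3′ UTR of each gene (GENCODE M21, GRCm38). Of 15080 genes of the table with a 3′ UTR, 1577 (10.5%) held at least 1 match, and 28 (0.186%) held 3 or more. Among the axis genes 8 of 10 held a match, 21 matches in all. Lin28b, Hmga2, Igf2bp1 and Trim71 had 4 each, Lin28a had 2, and Hmga1, Igf2bp2 and Igf2bp3 had 1 each. A single site of each gene is printed here within 30 bases of its UTR, with the match in capitals. All are on the minus strand except that of Hmga1. They lie at chr4:134005189-134005218 (Lin28a), chr10:45381022-45381051 (Lin28b), chr9:114512472-114512501 (Trim71), chr17:27563270-27563299 (Hmga1), chr10:120364224-120364253 (Hmga2), chr11:95961778-95961807 (Igf2bp1), chr16:22059473-22059502 (Igf2bp2) and chr6:49086787-49086816 (Igf2bp3).
Lin28a: ttggagtgcacagcctgttgaaCTACCTCa
Lin28b: tcccttcacccgggcgggaagtCTACCTCa
Trim71: aaagtacaacattgcctaagtcCTACCTCa
Hmga1: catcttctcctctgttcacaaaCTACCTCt
Hmga2: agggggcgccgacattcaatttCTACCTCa
Igf2bp1: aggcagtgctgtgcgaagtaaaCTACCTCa
Igf2bp2: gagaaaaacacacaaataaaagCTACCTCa
Igf2bp3: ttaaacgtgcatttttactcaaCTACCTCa
In 7 of these 8 sites an A follows the match, the base that lies opposite the first base of let-7. Hmga1 had a T there. Mycn and Dis3l2 had no match in their longest 3′ UTRs of 913 and 350 bases. Sites that lack the first C of the match but end in the following A were not counted as matches. Mycn held 2 of these shorter sites, Hmga2 3, Trim71 2, and Lin28b, Igf2bp1 and Igf2bp2 1 each. Dis3l2, Lin28a, Hmga1 and Igf2bp3 held none. The search reads letters only, and a match is not a measured binding site.

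Long UTRs hold matches more often, so each gene was set beside 3′ UTRs within 1.25-fold of its own length. Its own UTR and those of other axis genes of like length are among these, so the shares count them too. Several of these genes were already known as let-7 targets, so the shares are descriptive and are not a test. Hmga2, with 4 matches in 3014 bases, had a number reached by 0.151% of such UTRs. For Lin28b (4 in 4445 bases), Igf2bp1 (4 in 6337) and Trim71 (4 in 5512) the shares were 0.357%, 0.407% and 0.577%. The UTRs so counted for Igf2bp1 were only its own and that of Trim71. For Trim71 they were its own and those of Igf2bp1, Lin28b and Nr6a1. Lin28a, with 2 in 2775 bases, had a number reached by 2.37% of UTRs of its length. The single matches of Hmga1, Igf2bp2 and Igf2bp3 were matched by 9.05%, 12.6% and 14% of UTRs of like length. In Trim71 all 4 matches were followed by A, in Igf2bp1 3, in Lin28a both, and in Lin28b and Hmga2 1 each.

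**Figure D1:**
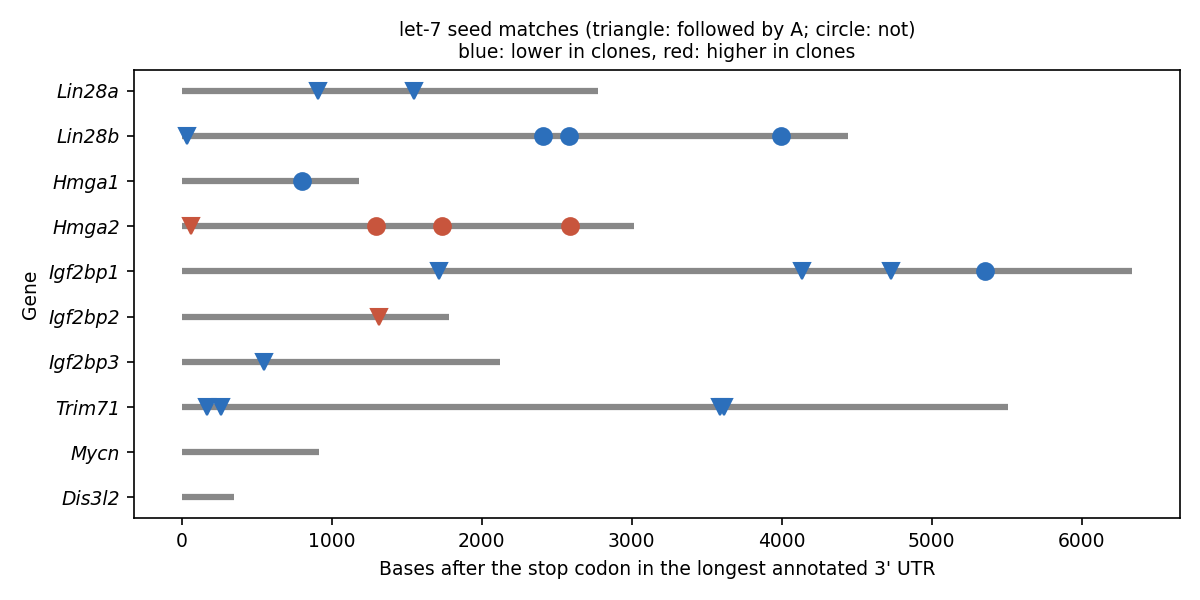
Positions of the let-7 seed match in the longest annotated 3′ UTR of each LIN28 axis gene, in bases after the stop codon, with matches followed by A as triangles and others as circles, in blue for genes lower and red for genes higher in the clones. Trim71, Igf2bp1, Lin28b and Hmga2 carry 4 matches each, while Mycn and Dis3l2 carry none. Shorter sites without the first C of the match, of which Mycn held 2, are not drawn.

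Of the 10 genes, 7 were lower and 3 higher in the clones than in the controls by limma at an adjusted p under 0.05. The genes that fell were Lin28a, Lin28b, Trim71, Hmga1, Igf2bp1, Igf2bp3 and Mycn, and those that rose were Hmga2, Igf2bp2 and Dis3l2. Across the 15179 genes tested, 73.5% were called in either direction, 35.2% higher and 38.3% lower. A call as such therefore set these genes little apart from the table. Control and clone values did not overlap for any of the 10, as for 77.3% of all genes tested (36.7% with the clones above and 40.6% with the clones below). The sizes were larger: the median absolute log2 fold change was 3.29 among the 10 genes and 0.96 over all genes tested. The log2 fold change reached 1 in either direction for 8 of the 10 and for 7354 of 15179 genes. The median signed log2 fold change was -2.97 for the axis and -0.07 over all genes. These summaries describe a chosen set and carry no test.

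**Figure D2:**
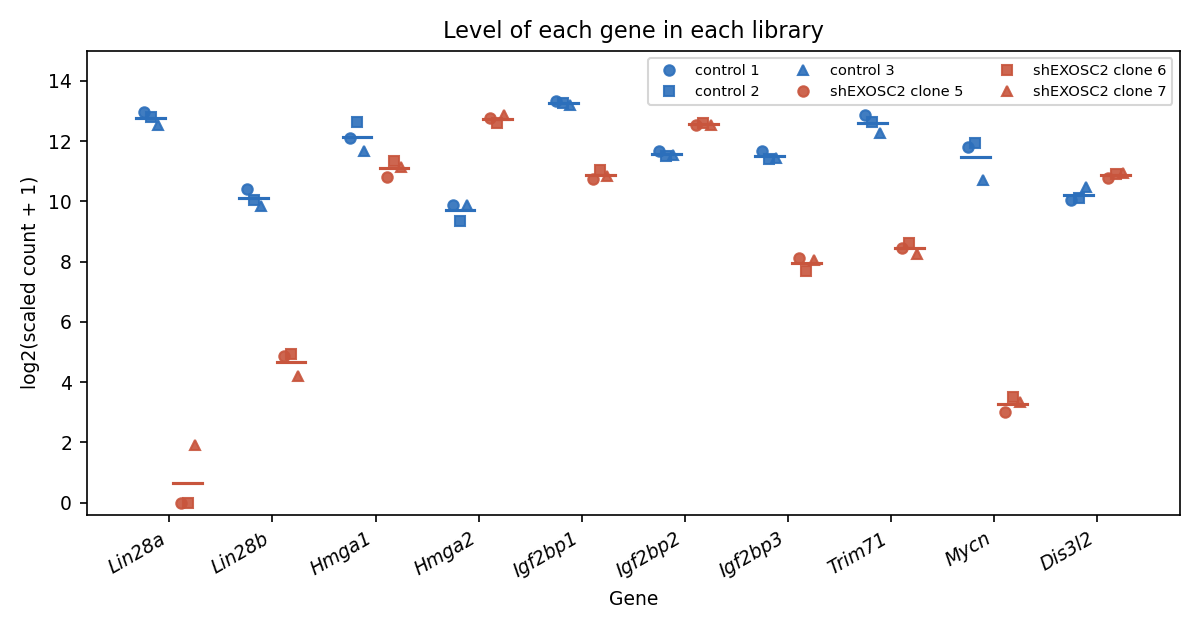
Levels of the 10 genes as log2(scaled count + 1), with a point for each of the 3 controls (blue) and 3 Exosc2 hairpin clones (red) and a bar at the mean of the log2 values. In scaled counts, Lin28a lies at 5931 to 7997 in the controls and at 0, 0 and 2.77 in the clones, while Hmga2, Igf2bp2 and Dis3l2 are the genes with clone values above the controls.

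The libraries as a whole bear on every value here. Recovered reads numbered 21107761 to 26494985 per library. Exosc2 itself measured 1954 to 2473 scaled counts in the controls and 981 to 1138 in the clones, which is 45.3% of the control mean, with a log2 fold change of -1.14 ± 0.13. Many cell type markers differed between the groups, while over all genes tested 35.2% were higher and 38.3% lower. The shares were 33.3% each way among 6 tested endoderm markers and 44.4% each way among 9 tested epithelial markers, too few genes to compare shares. The log2 fold changes of the epithelial markers ran from -8.71 (Krt17) to 12.65 (Ehf). Of 16 tested pluripotency markers 14 were lower and 2 (Pou5f1 and Klf4) higher, with a median log2 fold change of -6.90. Their summed level was 131861 to 143519 in the controls and 105811 to 116248 in the clones, and Utf1 and Zfp42 were at 0 in all clones. The sum is weighted to the genes with the most counts and includes Pou5f1 (log2 fold change 2.14) and Klf4 (2.54), which rose. It does not show how much of the 14 lower markers was kept. Of 13 tested fibroblast and feeder markers 11 were higher and 2 lower, with sums of 47116 to 71750.3 and 72336 to 93149. For primitive and visceral endoderm 2 of 6 tested markers were higher and 2 lower, and the 9 in the table had sums of 6452 to 8031 and 5773 to 7953. Of the markers too low to be tested, Sox17 was at 0 in the clones and Afp at 0 in the controls. For trophoblast 2 of 9 were higher and 6 lower (Cdx2 at 0 in the clones), with sums of 6540.0 to 14944 and 8433 to 11195. For epithelium 4 of 9 were higher and 4 lower (Krt17 at 0 in the clones and Krt6a at 0 in the controls), with sums of 21163 to 26022 and 22665 to 23286. The part of these cell type differences in the results below was not tested, and in bulk RNA fewer cells of a type and less RNA per cell cannot be told apart.

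Lin28a, the main LIN28 gene of pluripotent cells, was all but lost from the clones. The gene (ENSMUSG00000050966.9) lies on the minus strand at chr4:134003330-134018841 in GRCm38. It measured 7997, 7069.9 and 5931 scaled counts in controls 1, 2 and 3, and 0, 0 and 2.77 in clones 5, 6 and 7. The controls were all high, and clone 7 was the only clone with reads. Those were 3 reads, against 20895 in the controls, so the mean fell from 6999 ± 1035 to 0.923 ± 1.6 (SD, n = 3), a ratio of 7587 with an exact 95% Poisson interval of 2596 to 36789 for the counting error. On the log2(scaled count + 1) scale the change was -12.12 ± 0.48 (SE), with an adjusted p of 1.3e-07 in limma. This value depends on the added 1: with 5 added it was -10.23. Only 5 of the 15179 tested genes (0.0329%) changed by a lower log2 value. The median of its chromosome was -0.29.

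Lin28b, the paralog that blocks let-7 in many later tissues and tumours, fell as well but was still detected. The gene (ENSMUSG00000063804.7, chr10:45376620-45486395, minus strand) measured 1352, 1054 and 921 in controls 1, 2 and 3, and 27.9, 29.8 and 17.5 in clones 5, 6 and 7. Every clone had reads, and the highest clone was far below the lowest control. The means were 1109 ± 221 and 25.1 ± 6.59, and 2.26% of the control mean was left in the clones. The log2 fold change was -5.43 ± 0.25 (limma adjusted p = 2.6e-07).

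Per kilobase of exonic sequence, which allows levels of different genes to be compared, Lin28a made up 93.5% ± 0.394 of the summed LIN28 level in the controls. In clones 5 and 6 it made up 0%, and in clone 7 26.4%, a share that rests on the 3 reads. The summed level of both genes was 1874 ± 282 scaled counts per kilobase in the controls and 3.0 ± 0.337 in the clones. Clone values ran from 2.63 to 3.29, and those of the controls from 1586 to 2150.3, so the groups did not overlap. The share and the sums depend on the length used. Divided by the longest coding transcript, the control means were 1997 for Lin28a and 205 for Lin28b. The sums were then 2202 ± 335 in the controls and 4.90 ± 0.773 in the clones. The log2 ratio of Lin28a to Lin28b within a library was 2.66 ± 0.09 in the controls, and -4.85, -4.94 and -2.30 in clones 5, 6 and 7. The difference was -6.70 (SE 0.87). Its size depends on the added 1, because Lin28a was at 0 in clones 5 and 6. With 0.5 added it was -7.40, and with 5 added -5.01. An exact permutation test (two-sided) returned p = 0.1, which is the lowest value open to 3 against 3 libraries, and 0.1 after adjustment over the 6 paralog pairs compared.

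Dis3l2, the exonuclease gene that acts downstream of LIN28 on U-tailed RNA, moved the other way. The gene (ENSMUSG00000053333.15, chr1:86703808-87050095, plus strand) measured 1059.7, 1106 and 1421 in controls 1, 2 and 3, and 1744, 1911 and 1972 in clones 5, 6 and 7. Each clone was above each control, and control 3 was the closest. The means were 1196 ± 197 and 1876 ± 118, a 1.57-fold rise, with a log2 fold change of 0.66 ± 0.14 (limma adjusted p = 0.00196). The genes of chromosome 1 had a median log2 fold change of -0.60. After subtraction of chromosome medians the change of Dis3l2 was 1.24 (adjusted p = 3.0e-05), and with quantile normalization it was 0.45 (adjusted p = 0.0158). The same-strand transcript Gm37447 inside Dis3l2 measured 2.16 to 3.79 in the controls and 9.23 to 22.9 in the clones, and the opposite-strand pseudogene Gm6136 measured 189.8 to 296 and 192 to 205.

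The other genes of let-7 processing and terminal uridylation did not move together. Of the 21 tested, 5 rose and 6 fell, while 10 did not pass. Over all genes tested 35.2% rose and 38.3% fell. Without clone 5, clone 6 or clone 7 only 3 of the 21 rose, and 5, 4 and 4 fell. Quantile normalization gave 4 that rose and 9 that fell. The list's median was -0.05 on the log2 scale. Under chromosome centring that median was 0.04 and under quantile normalization -0.23. The members with the smallest p were Hnrnpa1, Zcchc11 and Drosha, and all 3 fell. Zcchc11, which encodes the uridylyltransferase TUT4, went from 2426 ± 307 to 1234 ± 114 (log2 fold change -0.97 ± 0.13), with 2080.1 as the lowest control and 1319 as the highest clone. Zcchc6, which encodes TUT7 and was chosen after its values were seen, rose from 1178 ± 239 to 2255 ± 93.8 (0.96 ± 0.15), again without overlap. Drosha, the nuclease that releases microRNA hairpins from their transcripts, fell from 6547 ± 398 to 4107 ± 95.8 (-0.67 ± 0.09). Hnrnpa1, an RNA-binding protein gene, fell from 26448 ± 1782 to 15122 ± 890.0 (-0.81 ± 0.10). The messages of both LIN28 genes and of TUT4 were thus lower in the clones, and those of TUT7 and DIS3L2 higher.

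Trim71, also called Lin41, encodes an RNA-binding ubiquitin ligase of early embryonic cells that represses target messages. It fell in all clones. The gene (ENSMUSG00000079259.2, chr9:114507133-114564369, minus strand) measured 7529.7, 6305 and 4982 in controls 1, 2 and 3, and 352, 390.4 and 302 in clones 5, 6 and 7. The clones lay close together and far below the lowest control. The means were 6272 ± 1274 and 348 ± 44.5, 5.55% of the control level, with a log2 fold change of -4.16 ± 0.17 (limma adjusted p = 1.4e-07). Of 10 tested genes listed as TRIM71 targets, 6 rose and 4 fell (60% and 40%, against 35.2% and 38.3% of all genes tested), with a median of 1.53 against -0.07. The smallest p belonged to Mbnl1, a splicing regulator gene, which rose from 325 ± 25.1 to 4331 ± 224 (3.73 ± 0.11). Cdkn1a, the gene of the cell cycle inhibitor p21, had a log2 fold change of 2.74 ± 0.09. Hoxa5, a homeobox gene, rose from 7.33 ± 3.42 to 336 ± 27.6 (5.42 ± 0.32). The genes that fell, named after their values were seen, were Lefty1 (-9.30 ± 0.59), Inhbb (-3.06 ± 0.28), Egr1 (-2.31 ± 0.64) and E2f7 (-0.86 ± 0.13). The fall of Lefty1 was the largest change in the list, and the call of Egr1 was lost without control 1 (-1.82).

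The HMGA genes encode small architectural proteins that bind AT-rich DNA, and the pair moved in opposite directions. Hmga2 (ENSMUSG00000056758.14, chr10:120361275-120476469, minus strand) measured 937, 657 and 945 in controls 1, 2 and 3, and 6939, 6175 and 7450.3 in clones 5, 6 and 7. Every clone was several times above every control. The means were 846 ± 164 and 6855 ± 642, an 8.10-fold rise, with a log2 fold change of 3.03 ± 0.16 (limma adjusted p = 4.7e-07), and 94.9% of all tested genes had a lower one. Hmga2 had the most seed matches per kilobase of 3′ UTR among the 10 genes (1.33). Lin28b (0.90) and Hmga1 (0.85) came next, and both fell. A link between matches and change was not tested. The antisense transcript 1700006J14Rik that overlaps it did not exceed 9.04 in any library.

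Hmga1 (ENSMUSG00000046711.15, chr17:27556497-27563674, plus strand) measured 4382, 6414 and 3265 in controls 1, 2 and 3, and 1811, 2621 and 2258 in clones 5, 6 and 7. The gap was narrow: control 3 was 3265 and clone 6 was 2621. The means were 4687 ± 1597 and 2230.0 ± 406, so 47.6% was retained, with a log2 fold change of -1.03 ± 0.24 (limma adjusted p = 0.00373). AI413582, a protein-coding gene that overlaps the end of Hmga1 on the other strand, measured 239 to 369 over the libraries.

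Per kilobase of exonic sequence, Hmga2 rose from 5.91% ± 2.63 of the summed HMGA level in the controls to 49.3% ± 6.19 in the clones. The summed level was 2331 ± 728 in the controls and 2062 ± 160 in the clones, and these ranges overlapped. By the length of the longest coding transcript the sums were 2564 ± 757 and 2914 ± 179.6, so the direction of the difference turned, again with overlap. In the clones the levels of Hmga1 and Hmga2 were 1049 ± 191 and 1012 ± 94.8 scaled counts per kilobase, an order that depends on the length used. Divided by the length of the longest coding transcript instead, the means were 1114 for Hmga1 and 1799 for Hmga2. The within-library log2 ratio of Hmga1 to Hmga2 went from 2.43 ± 0.77 to -1.63 ± 0.36, a difference of -4.06 (SE 0.49). The exact permutation test gave p = 0.1, the smallest possible.

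The IGF2BP proteins bind and stabilise messages such as those of IGF2 and MYC, and their 3 genes did not change as a block. Igf2bp1 (ENSMUSG00000013415.9, chr11:95957163-96005940, minus strand) measured 10392, 9836 and 9351 in controls 1, 2 and 3, and 1694, 2097 and 1823 in clones 5, 6 and 7. Both groups were tight and far apart. The means were 9859 ± 521 and 1871 ± 206, a 5.27-fold fall, with a log2 fold change of -2.40 ± 0.11 (limma adjusted p = 2.4e-07). Igf2bp3 (ENSMUSG00000029814.10, chr6:49085223-49214957, minus strand), the paralog most restricted to fetal tissue and tumours, measured 3226, 2721 and 2763 in controls 1, 2 and 3, and 279, 203 and 266 in clones 5, 6 and 7. Each clone was far below each control. Its means were 2903 ± 281 and 249 ± 40.2, 8.58% of the control level, with a log2 fold change of -3.55 ± 0.15 (limma adjusted p = 1.8e-07). Malsu1, which overlaps the 3′ end of Igf2bp3 on the other strand, measured 471 to 505 in the controls and 343 to 390.4 in the clones. The sources used here do not say whether counting used the strand, so a part of these reads cannot be assigned to either gene with certainty.

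Igf2bp2, the paralog that persists in adult tissues, rose. The gene (ENSMUSG00000033581.16, chr16:22059009-22163299, minus strand) measured 3239, 2892 and 2959.9 in controls 1, 2 and 3, and 5985, 6183 and 5942 in clones 5, 6 and 7. The clones differed little among themselves and stood above all controls. The means were 3030.3 ± 184 and 6037 ± 129, a 1.99-fold rise, with a log2 fold change of 1.0 ± 0.09 (limma adjusted p = 1.4e-05).

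The composition of the family changed accordingly. Per kilobase of exonic sequence, Igf2bp1 made up 57.1% ± 1.11 of the family sum in the controls and 18.6% ± 1.47 in the clones. Igf2bp2 went from 23.0% ± 0.504 to 78.5% ± 0.941, and Igf2bp3 from 19.9% ± 0.792 to 2.95% ± 0.557. These shares depend on the length used. Divided by the longest coding transcript, the control means were 1177, 777 and 668 for Igf2bp1, Igf2bp2 and Igf2bp3. The clone means were 223, 1548 and 57.4. The leading paralog was Igf2bp1 in every control and Igf2bp2 in every clone. The summed level fell from 1784 ± 108 to 1039 ± 32.6 scaled counts per kilobase of exonic sequence, without overlap. By the longest coding transcript it fell from 2622 ± 166 to 1829 ± 46.7, also without overlap. The log2 ratio of Igf2bp1 to Igf2bp2 went from 1.70 ± 0.06 to -1.69 ± 0.13, and that of Igf2bp2 to Igf2bp3 from 0.06 ± 0.05 to 4.61 ± 0.27. Igf2bp1 and Igf2bp3, which both fell, also separated, with a ratio of 1.77 ± 0.08 in the controls and 2.91 ± 0.40 in the clones. Each of these 3 differences had an exact permutation p of 0.1, the smallest possible.

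**Figure D3:**
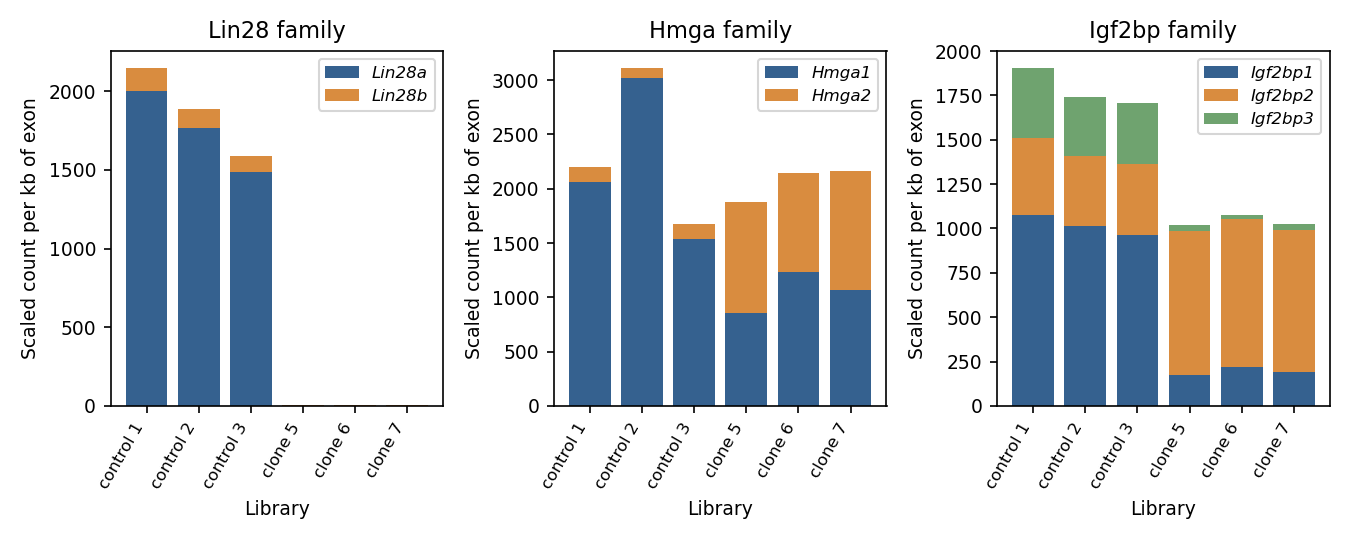
Scaled counts per kilobase of exonic sequence for the LIN28, HMGA and IGF2BP genes in each library, stacked by paralog. The bar of the IGF2BP family is led by Igf2bp1 in the controls and by Igf2bp2 in the clones, the HMGA bar gains Hmga2, and the LIN28 bar falls to 2.63 to 3.29 in the clones.

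Mycn, a MYC family transcription factor gene of embryonic and neural progenitors, was close to absent from the clones. The gene (ENSMUSG00000037169.14, chr12:12936093-12941914, minus strand) measured 3568, 3960.5 and 1664 in controls 1, 2 and 3, and 6.96, 10.3 and 9.23 in clones 5, 6 and 7. Control 3 was the lowest control and still stood far above the clones. The clones held 27 reads and the controls 9092, a ratio of scaled means of 347 with an exact 95% Poisson interval of 239 to 527 for the counting error only. The controls alone varied more than counting error, with a coefficient of variation of 40.1%. The log2 fold change was -8.20 ± 0.33 (limma adjusted p = 1.3e-07), and 0.718% of tested genes had a lower one. Its paralog Myc stood at 168 to 327 in the controls and at 10904 to 12619 in the clones. Within a library the log2 ratio of Mycn to Myc was 3.45, 3.72 and 3.30 in the controls and -10.42, -10.13 and -10.20 in the clones. This difference of -13.74 (SE 0.15) was the largest of the 6 paralog pairs, again with an exact permutation p of 0.1. In the wider MYC network 8 of 16 tested genes rose and 4 fell, while 4 did not pass. The shares over all genes tested were 35.2% and 38.3%. The network's median log2 fold change was 0.43. Besides Myc the smallest p belonged to Mxd1 and Mxd4, which encode MAX partners that oppose MYC. Mxd1 rose from 145 ± 18 to 1325 ± 116 (3.19 ± 0.15), and Mxd4 from 167 ± 39.1 to 2079.7 ± 171 (3.66 ± 0.18).

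**Figure D4:**
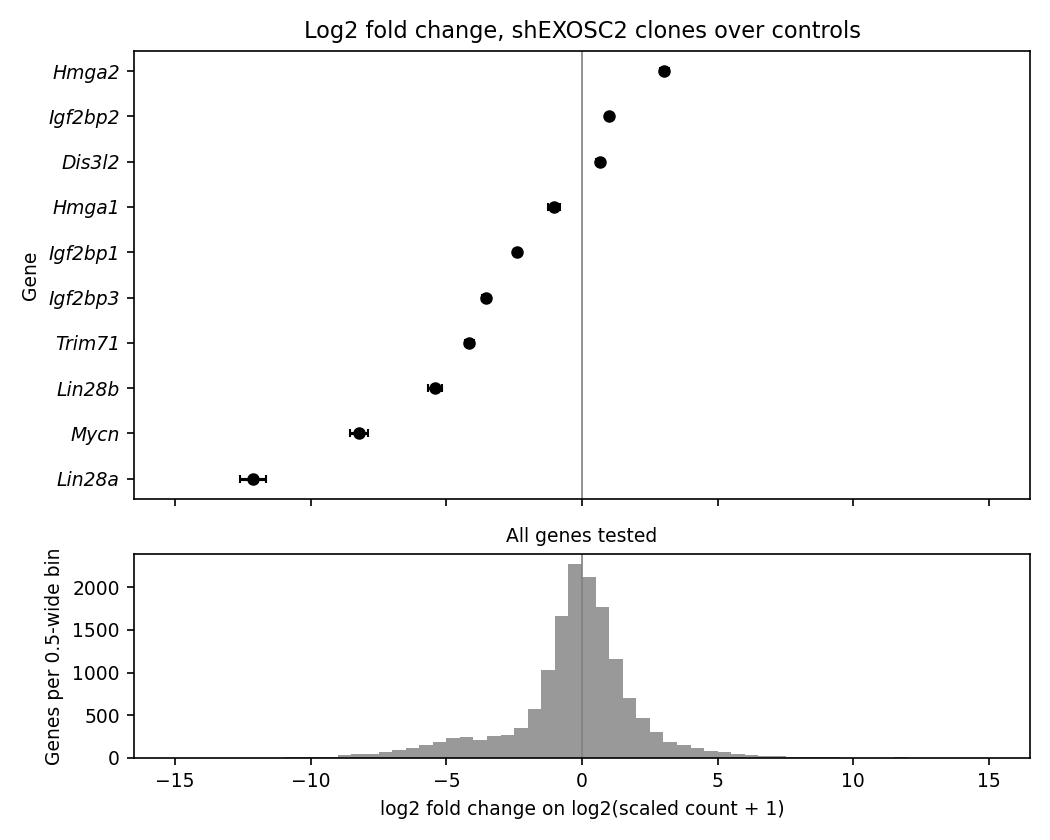
Log2 fold changes (clones over controls, on the log2(scaled count + 1) scale) of the 10 genes with their SE (upper panel), above a histogram of all 15179 genes tested (lower panel). The values run from -12.12 for Lin28a to 3.03 for Hmga2, and the table's median is -0.07.

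Genes with and without a seed match changed in both directions. Among the 8 genes with a match, Hmga2 and Igf2bp2 rose and the other 6 fell, and of the 2 without one, Dis3l2 rose and Mycn fell. Mycn did hold 2 of the shorter sites that lack the first C. Such sites are not counted here, so genes without a match, also over the table, can carry them. The 4 genes with 4 matches had log2 fold changes of -5.43 (Lin28b), -4.16 (Trim71), -2.40 (Igf2bp1) and 3.03 (Hmga2). Over the table, 36.6% of 1460 tested genes with a match were higher and 40.3% lower, against 36.5% and 38.6% of 12242 genes without one. Their median log2 fold changes were -0.08 and -0.04. Their median 3′ UTR lengths differed as well, at 2326.5 and 1057 bases, and the 2 classes were not matched for length. In the 27 tested genes with 3 or more matches 11 were higher and 11 lower, with a median of -0.15, and in the 23 that are not axis genes the median was 0.17. Of 37 tested genes listed as other let-7 targets, 19 rose and 13 fell, while 5 did not pass. The median of that list was 0.54. Among its 27 tested genes with a seed match, 11 rose and 12 fell, with a median of -0.18. The smallest p in that list belonged to Arid3b, Myc and Dna2. Arid3b, a DNA-binding protein gene, fell from 1611 ± 50.2 to 58.5 ± 7.09 (-4.77 ± 0.15), and Dna2, a DNA nuclease and helicase gene, from 2287 ± 74.6 to 574 ± 41.3 (-1.99 ± 0.11).

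Transcripts that span let-7 hairpins on the genome were measured for 5 genes, and they differed in direction. 6720427I07Rik, which spans Mirlet7a-1, Mirlet7d and Mirlet7f-1 on chromosome 13, measured 140.2, 88.6 and 139.6 in controls 1, 2 and 3, and 46.8, 39.0 and 42.4 in clones 5, 6 and 7. All clones were below all controls, with a log2 fold change of -1.47 ± 0.25 (limma adjusted p = 7.0e-04). 2610203C20Rik, which spans Mirlet7a-2 on chromosome 9, measured 182, 94.0 and 297 in the controls and 1457, 835 and 1044 in the clones. All clones were above all controls (2.65 ± 0.39, adjusted p = 2.4e-04). Wdr82, which spans Mirlet7g, fell from 4416 ± 371 to 3033 ± 157 (-0.54 ± 0.10). Huwe1, a ubiquitin ligase gene that spans Mirlet7f-2 and Mir98, did not pass the test (-0.10 ± 0.13, adjusted p = 0.510). Spaca6, which spans Mirlet7e, had overlapping groups of 145 to 407 and 351 to 644, and its call (1.06 ± 0.37, adjusted p = 0.0291) was lost without control 1, control 2, clone 5 or clone 7. Levels of a spanning transcript are not levels of mature let-7.

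Genes that work with the IGF2BP proteins or in the IGF2 axis were mostly lower. Of 15 tested IGF2BP partner genes, 11 fell and 2 rose, while 2 did not pass. Their median was -0.49. Over all genes tested 35.2% were called higher and 38.3% lower. Across the alternatives 9 to 12 partner genes were called lower. Hnrnpu and Elavl1, named after their values were seen, lost their calls under 4 and 5 of the 15 alternatives. Both changed sign under 1 of them. Hnrnpd and Elavl2, both RNA-binding protein genes, were among the members with the smallest p. Hnrnpd fell from 12945 ± 1961 to 4235 ± 330.0 (-1.60 ± 0.13). Elavl2 measured 863, 665 and 561 in the controls and 14.9, 0 and 1.85 in the clones. Of 17 tested genes of the IGF2 axis and oncofetal list, 11 fell and 5 rose, while 1 did not pass. These shares were 64.7% lower and 29.4% higher, against 38.3% and 35.2% of all genes tested. The median was -1.73. The call of H19, also named after its values were seen, was lost under 6 of the 15 alternatives. Mest, an imprinted gene, fell from 2437 ± 620.0 to 122 ± 7.04 (-4.28 ± 0.19), and Sall4, a stem cell transcription factor gene, from 5382 ± 550.2 to 478 ± 127 (-3.52 ± 0.18). Igfbp3, a secreted IGF-binding protein gene, had a log2 fold change of 7.14 ± 0.16. Igf2, named after its values were seen, measured 1635, 1725 and 13092 in controls 1, 2 and 3, and 674, 460.3 and 844 in the clones. Control 3 stood far above the other controls, so the log2 fold change was -2.38 ± 0.71 with it and -1.39 without it (limma adjusted p = 0.0139 and 0.00169).

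**Figure D5:**
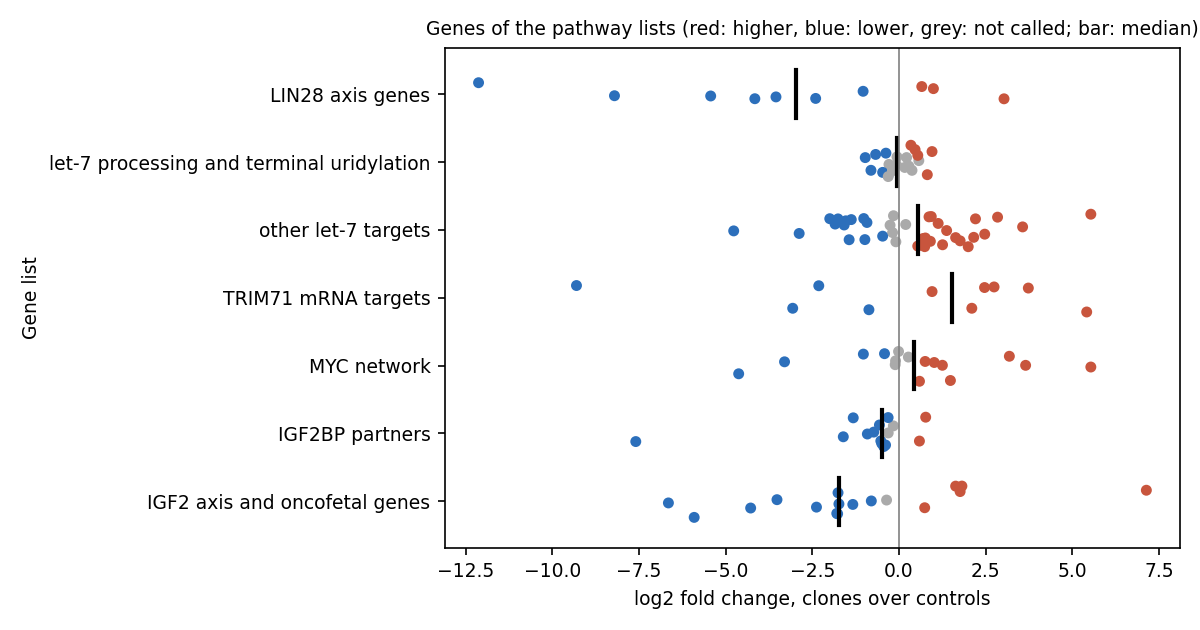
Log2 fold changes of the tested genes of each list, with the list median as a bar, beside the 10 LIN28 axis genes, with the cell type marker lists left out. Points are coloured by their call. The medians run from -2.97 for the axis to 1.53 for the TRIM71 target list.

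The genes whose profile over the 6 libraries was most like that of Lin28a were Esrrb, Zfp42, Tdgf1, Utf1 and Triml2. Their profiles, as log2 values less the control mean, had root mean square differences of 0.57, 0.73, 0.85, 0.89 and 0.90 from that of Lin28a. Esrrb measured 15711 to 17098 in the controls and 1.99 to 2.77 in the clones. For Dis3l2 the closest were Gskip, Coq2, Dlg5, Wasf2 and 3110040N11Rik, with differences of 0.03 to 0.06. Gskip measured 252 to 346 in the controls and 432 to 488 in the clones, with control 3 the highest control, as for Dis3l2. These likenesses rest on 6 libraries that share a single contrast.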

How the data were processed

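Poly(A) RNA of 3 control libraries and 3 Exosc2 hairpin clones was analysed. Per the labels' protocols, input was 500 ng per library and went through a stranded mRNA kit with 8 PCR cycles. The deposited values are a signal without upper bound: read counts per gene scaled by the authors, per the file header and the submitters' processing notes, which name DESeq 1.22.1, HTSeq 0.5.3, STAR 2.5.0a, cutadapt 1.6 and the build mm10. For the strand setting of counting: not given in the sources used here. Dividing each library by the value of 1 read left 100.0% of its values within 0.001 of a whole number, so reads were recovered (21107761 to 26494985 per library). Between controls the chi-square over its degrees of freedom reached 33.6 to 57.5, and between clones 11.4 to 14.5, so no library was a copy of another.

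The main test was limma 3.58.1 (lmFit, eBayes with trend) on log2(scaled count + 1) for the 15179 genes that averaged 10 or more, with Benjamini-Hochberg adjustment over all of them and a threshold of 0.05. Fold changes on this scale understate those of low genes. Ratios within a library were compared by exact two-sided permutation. Levels per kilobase used all exonic bases of GENCODE M21, to which 17860 of 17912 genes (99.7%) matched by identifier. The limma fit was tested on simulated counts, in which far fewer genes changed than in these data.

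The members and gene lists were chosen with earlier results of these data known. Named genes are the members, the 3 genes of each list with the smallest p, the 5 most alike to Lin28a and to Dis3l2, genes in the table that overlap a member, and genes that span a let-7 hairpin. Alternatives tried: adding 0.5 or 5 in place of 1, testing all genes or those averaging 50 or more, scaling by TMM or by quantiles, centring each chromosome, counting tests on recovered reads (DESeq2 1.42.0, edgeR 4.0.16), and dropping each library in turn. Lengths of the longest coding transcript were added after the data were seen. Some items these rules take are not reported here. R 4.3.3 and Python 3.11.15 were used.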

Additional observations from a re-analysis of the deposited data

How the results depend on the processing

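Under all 15 alternatives tried, 7 axis genes were called lower and 3 higher, and each kept its direction and its call. The log2 fold change of Dis3l2 ranged from 0.45 (quantile normalization, adjusted p = 0.0158) to 1.24 (chromosome centring), that of Hmga1 from -1.27 (without control 3) to -0.78 (without control 2), and that of Lin28a from -12.86 to -10.23 (pseudocount 5). Genes called across the table numbered 9228 (mean of at least 50) to 12553 (no filter), and 10216 to 11379 with a library left out. The paralog ratio differences kept their sign in 9 alternatives each, with an exact permutation p of 0.1, or of 0.2 with a library left out, the smallest each allows. Divided by the longest coding transcript, the log2 ratio of mean Hmga1 to Hmga2 in the clones was -0.69 in place of 0.05, so their order reversed there, and the difference of the HMGA sums (clones less controls) was 349 in place of -269 scaled counts per kilobase. The order of the LIN28 and of the IGF2BP paralogs was the same by either length in both groups, but sizes moved. The log2 ratio of mean Igf2bp1 to Igf2bp2 in the controls was 0.60 by the longest coding transcript in place of 1.31. In the clones it was -2.79 in place of -2.08. That of Lin28a to Lin28b in the controls was 3.28 in place of 3.84. No paired analysis was possible because the controls are numbered 1 to 3 and the clones 5 to 7. Depth limits Lin28a in the clones (3 reads) and Mycn (27 reads).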
